A study of Mus musculus with 6 samples.

Results

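The 39 genes described here encode transcription factors that set up or mark mesoderm and endoderm. They include the GATA, SoxF and forkhead factors of the endoderm, regulators of the primitive streak, and factors of the heart, muscle, limb, kidney, blood and liver. They were taken from a fixed list by name, out of 21887 protein-coding mouse genes, and each was described by the methylation calls from 5000 bp before to 5000 bp after its GRCm38 span, called its window here. All 39 windows held at least 1 called position, 1348 of the 448072 distinct positions in the whole series.

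The measurements come from reduced representation bisulfite sequencing, a method that enriches CpG-rich DNA by restriction digestion before reading it. There were 6 lines in culture, all from the mouse strain OG2. GSC were germline stem cells (1 line), the cultured form of spermatogonial stem cells. The iPSC were induced pluripotent stem cells derived from GSC (2 independent lines), the gPSC were germline-derived pluripotent stem cells (2 independent lines), and the ESC were embryonic stem cells (1 line). Each line is 1 library, and no other treatment, age or passage is given in the labels, so GSC and ESC have no replicate and the spread between 2 lines is the only measure of error. All values are differences, in percent points of methylation, from 1 other library, called the reference. The deposited tables leave it unnamed, and it is assumed to be ESC, which alone has no table. A position is listed when it differed from the reference with a q-value of at most 0.01 by at least 25 points, and it is called higher or lower by its sign. A position that is not listed was either not called or not covered. These cannot be told apart, the depth is unknown, and no interval can be given for a single difference.

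In early embryos and in pluripotent cells the CpG-rich starts of such lineage regulators usually carry little DNA methylation. They are held silent by Polycomb proteins, which mark their chromatin, until a lineage is entered. Methylation is copied on both strands of a CpG, so the cytosines on the 2 strands of 1 CpG usually have nearly the same level.

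Across the 5 libraries the windows held 2283 listed calls. GSC had 483 higher and 223 lower positions in the windows. The iPSC lines had 229 higher and 107 lower (line 1) and 316 higher and 157 lower (line 2). The gPSC lines had 267 higher and 170 lower (line 1) and 256 higher and 75 lower (line 2). GSC therefore held the most calls of both directions, and the lines of a kind differed from each other as much as the kinds did. In the plot of counts by gene, each library has both directions in most windows, and 32 members had both in GSC.

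**Figure D1:**
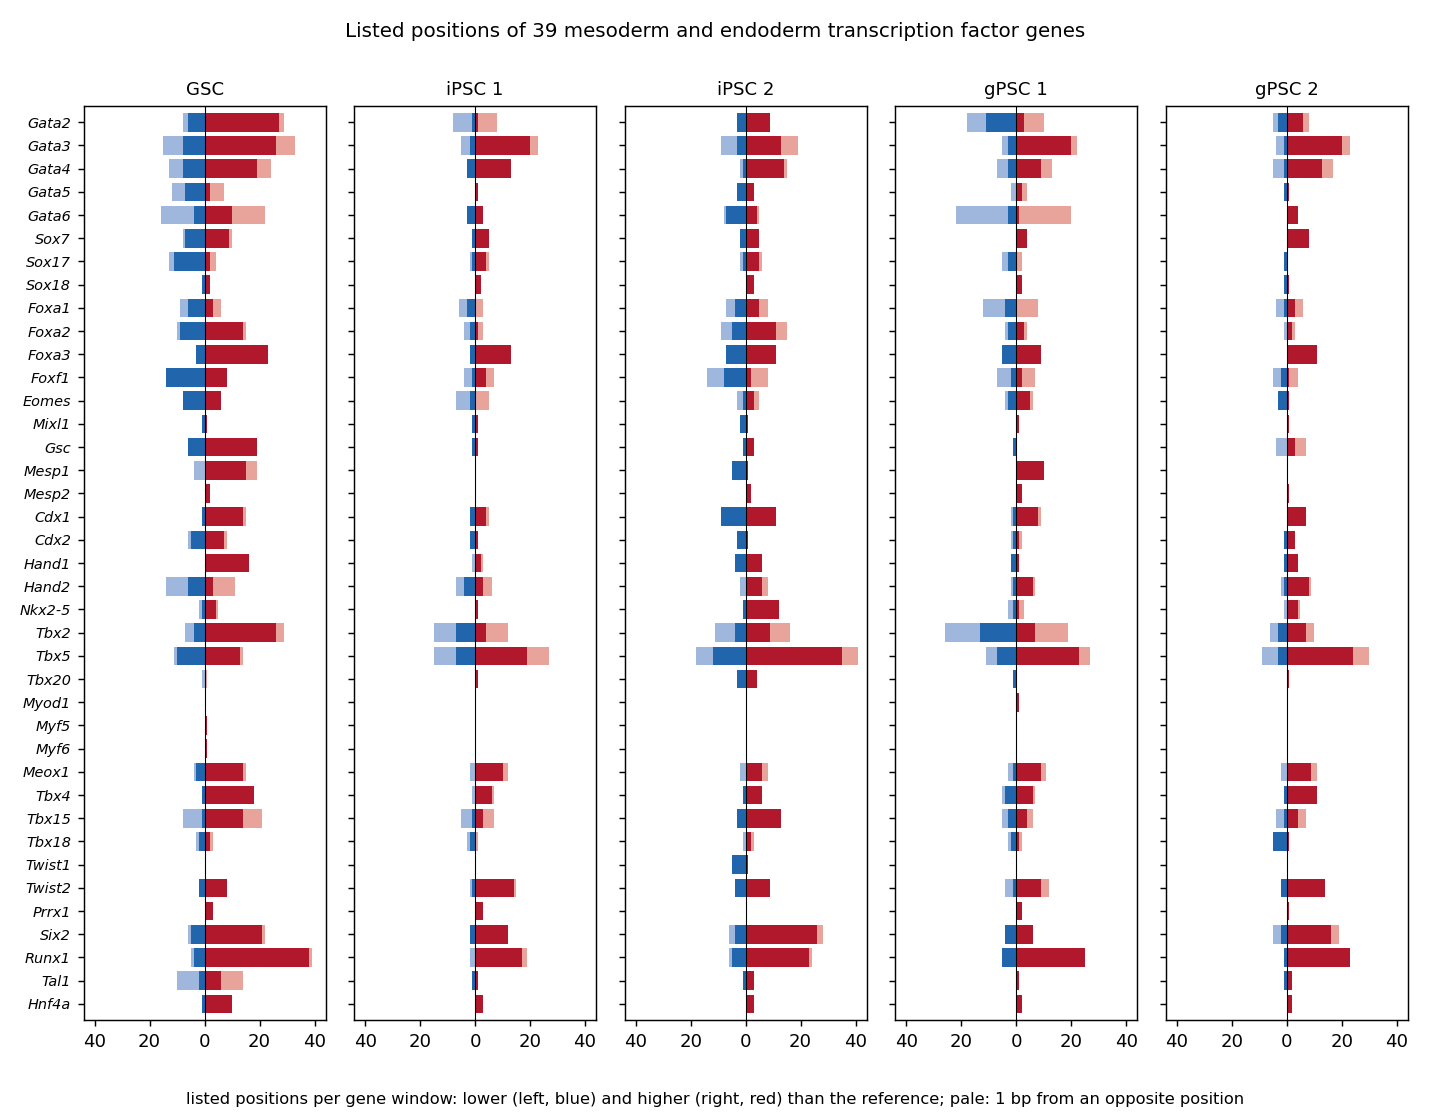
Listed positions in the window of each of the 39 genes (rows) in each library (panels). Bars to the right count positions with higher and bars to the left positions with lower methylation than the reference, and the pale ends are positions 1 bp from a position of the opposite direction. Runx1 in GSC reaches 39 higher positions, Tbx5 in iPSC 2 reaches 41, and most pale bars of Gata6 stand in GSC and gPSC 1.

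The members leaned less to higher methylation than the genome-wide calls. Higher positions made up 68.4% of the members' calls in GSC, against 82.9% of all listed positions. The shares were 68.2% against 82.4% in iPSC 1, 66.8% against 78.2% in iPSC 2, 61.1% against 82.0% in gPSC 1 and 77.3% against 87.2% in gPSC 2. The members' share was below that of all positions in each of the 5 libraries, which all share 1 reference. All listed positions include those outside gene windows, so this does not compare the members with other genes. The median number of higher positions per member window was 10 in GSC, 3 and 6 in iPSC 1 and iPSC 2, and 4 and 4 in gPSC 1 and gPSC 2. Over the 18043 protein-coding windows with a listed position, these medians were 5, 2, 3, 3 and 3. The medians for lower positions were 5, 2, 3, 3 and 1 in the member windows, against 1, 0, 1, 0 and 0 over all windows. So the windows held more calls than most, although the genes were short: their median length was 9334 bp, against 21916 bp for all genes tested.

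A part of these calls stood in mirrored pairs, in which 2 positions 1 bp apart were listed in opposite directions. They can be the 2 cytosines of 1 CpG or, where CpGs adjoin, neighbours from 2 CpGs, which were not told apart. In GSC, 21.7% of the members' positions had such a neighbour, against 13.8% of all listed positions. The members' share was 33.0% and 19.0% in iPSC 1 and iPSC 2, and 37.3% and 23.6% in gPSC 1 and gPSC 2, against 15.4%, 14.3%, 17.3% and 12.4% of all positions. In the member windows of GSC, 84 of the 102 pairs of listed positions 1 bp apart had opposite signs, and in 68 of these the differences summed to within 5 points of 0. Counts are therefore given with all positions and, as "unpaired", without those 1 bp from an opposite one. Unpaired higher and lower positions numbered 406 and 147 in GSC, 173 and 52 in iPSC 1, 271 and 112 in iPSC 2, 186 and 88 in gPSC 1, and 217 and 36 in gPSC 2.

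A window was called higher or lower in a library when it held at least 3 positions of that direction and they made up at least 80% of its listed positions. In GSC, 10 members were called higher, where the rule calls 42.9% of the 18043 windows. They were Foxa3, Mesp1, Cdx1, Hand1, Tbx2, Tbx4, Twist2, Prrx1, Runx1 and Hnf4a. For iPSC 1 the count was 11 (29.0% of all windows) and for iPSC 2 it was 10 (29.5%). For gPSC 1 it was 5 (32.8%) and for gPSC 2 it was 12 (40.1%). The members' counts in GSC, gPSC 1 and gPSC 2 are thus smaller shares than the background, while 11 of 39 in iPSC 1 and 10 of 39 in iPSC 2 are close to it. Without the mirrored pairs, 15 members were called higher in GSC (48.4% of all windows). The call then held for 13 members in iPSC 1 (32.1%) and 12 in iPSC 2 (33.5%), and for 8 in gPSC 1 (37.7%) and 17 in gPSC 2 (43.6%).

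Calls that held in both lines of a kind were fewer. In both iPSC lines 6 members were called higher (18.2% of all windows), namely Gata4, Meox1, Tbx4, Six2, Runx1 and Hnf4a. In both gPSC lines 4 were (24.8%), namely Gata3, Sox7, Cdx1 and Runx1. Only Runx1, a factor needed for the first blood stem cells, was called in all 4 lines (13.5%). The call of lower methylation was rare. It was met in iPSC 2 by Mesp1 and Twist1 (2.11% of all windows) and in gPSC 2 by Tbx18 (1.27%). No member met it in GSC (2.41%), iPSC 1 (1.92%) or gPSC 1 (1.44%), and none met it in both lines of a kind (0.216% of windows for iPSC, 0.205% for gPSC and 0.0443% for all 4 lines). Without the mirrored pairs, the lower call was met by Sox17 in GSC (3.42%), by Foxa1 in iPSC 1 (2.57%), and by Mesp1, Twist1 and Foxf1 in iPSC 2 (2.89%). In gPSC 1 it was then met by Sox17 and Foxa1 (2.22%), and in gPSC 2 still by Tbx18 alone (1.61%).

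These 4 stretches of DNA show the kinds of calls that recur below. They are RefSeq promoters of the GRCm38.p6 build, 300 bases around a start, inside the members' windows, and capitals mark the listed cytosines. A capital G stands for the cytosine on the opposite strand, so CG in capitals is a CpG with both strands listed. The first is the Twist2 promoter, chr1:91801211-91801510 on the plus strand, with listed CpGs in a short run before the start. The second is the Gata2 promoter, chr6:88193641-88193940 on the plus strand, with 32 CpGs and few listed ones. The third is the promoter of the transcript Gm33408 inside the Eomes window, chr9:118478683-118478982 on the minus strand, and the last is that of Gm5563 inside the Tbx5 window, chr5:119831937-119832236 on the minus strand, with 6 CpGs listed on both strands.
Twist2: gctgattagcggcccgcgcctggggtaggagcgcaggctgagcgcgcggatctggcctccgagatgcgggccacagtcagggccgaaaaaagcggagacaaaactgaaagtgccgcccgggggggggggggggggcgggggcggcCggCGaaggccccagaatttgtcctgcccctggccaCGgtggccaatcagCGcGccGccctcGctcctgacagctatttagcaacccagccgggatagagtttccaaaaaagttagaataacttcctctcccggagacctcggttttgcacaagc
Gata2: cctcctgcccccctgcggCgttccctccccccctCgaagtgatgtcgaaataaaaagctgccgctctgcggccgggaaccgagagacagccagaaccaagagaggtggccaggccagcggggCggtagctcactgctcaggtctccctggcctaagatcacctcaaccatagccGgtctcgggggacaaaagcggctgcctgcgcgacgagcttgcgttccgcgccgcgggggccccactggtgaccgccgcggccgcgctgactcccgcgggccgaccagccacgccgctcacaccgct
Gm33408 (Eomes window): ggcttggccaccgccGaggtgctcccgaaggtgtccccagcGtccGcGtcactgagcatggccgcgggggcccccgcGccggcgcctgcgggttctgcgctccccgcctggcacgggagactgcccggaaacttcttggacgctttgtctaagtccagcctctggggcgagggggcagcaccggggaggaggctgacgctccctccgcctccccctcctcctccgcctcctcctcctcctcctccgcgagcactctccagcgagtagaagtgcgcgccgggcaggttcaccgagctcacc
Gm5563 (Tbx5 window): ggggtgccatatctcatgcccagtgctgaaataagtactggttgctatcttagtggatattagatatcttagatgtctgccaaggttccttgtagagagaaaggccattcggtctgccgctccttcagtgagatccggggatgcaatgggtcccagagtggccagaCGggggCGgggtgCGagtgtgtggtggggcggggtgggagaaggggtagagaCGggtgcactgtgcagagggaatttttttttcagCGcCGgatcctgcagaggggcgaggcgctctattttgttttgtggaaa

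The promoter table holds 24 of the 39 members, with 30 promoters of 300 bp. It has no entry for Gata4, Gata6, Sox7, Sox17, Sox18, Foxf1, Hand1, Cdx1, Mixl1, Myod1, Myf6, Tbx2, Tbx5, Tbx15 and Meox1. Of the members' 30 promoters, 6 held a listed position (20%), against 18.5% of all 32851 promoters. The members' promoters were richer in CpG, with a median of 17.5 CpGs against 7. The motif CCGG, a palindrome searched as written, was in 20 of them (66.7%), against 52.8% of all promoters. The 24 members with a start were also split by distance. Within 1000 bp of a start GSC had 47 unpaired higher and 41 lower positions, 53.4% higher, and in the rest of the windows 211 higher and 41 lower, 83.7% higher. For all 17492 genes with a start in the table, the shares were 42.7% near starts and 94.6% in the rest.

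The same split was seen in other libraries, with different sizes. Near starts, 61.9% and 46.3% of the members' unpaired positions were higher in iPSC 1 and iPSC 2, and 67.6% and 76.9% in gPSC 1 and gPSC 2. In the rest of the windows the shares were 83.5%, 81.5%, 70.0% and 87.0%. In gPSC 1 the members' shares near and away from starts thus lay close together, where all genes had 49.0% and 92.8%. This closeness rested on Mesp1, which held 10 of the 23 higher positions near starts in gPSC 1. Without it the share near starts was 54.2%. In the rest of the window the members had a smaller share of higher positions than all genes in each library. Near starts their pooled share was the larger one in each library (all genes had 42.3% in iPSC 1, 43.1% in iPSC 2 and 55.2% in gPSC 2). In GSC this rested on Six2 and Mesp1 together. In iPSC 1 and iPSC 2 it rested on Six2 alone, without which the shares were 38.5% and 37.0%. Six2 and Mesp1 were chosen after their values were seen, and they held 25 of the 47 higher positions near starts in GSC. Without both, the shares were 36.1% in GSC, 38.5% in iPSC 1 and 39.02% in iPSC 2, all below those of all genes. They were 52.2% and 66.7% in gPSC 1 and gPSC 2, still above those of all genes. Counted by member, those with more lower than higher unpaired positions near their start outnumbered the reverse in iPSC 1 (5 against 3) and iPSC 2 (10 against 5), and not in GSC (6 against 8), gPSC 1 (6 against 7) or gPSC 2 (3 against 8). In GSC, 6 members had more lower than higher unpaired positions near their start and more higher ones elsewhere: Gata5, Foxa2, Eomes, the goosecoid gene Gsc, Cdx2 and Runx1. The reverse arrangement was met by 1 member, Foxa1.

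**Figure D2:**
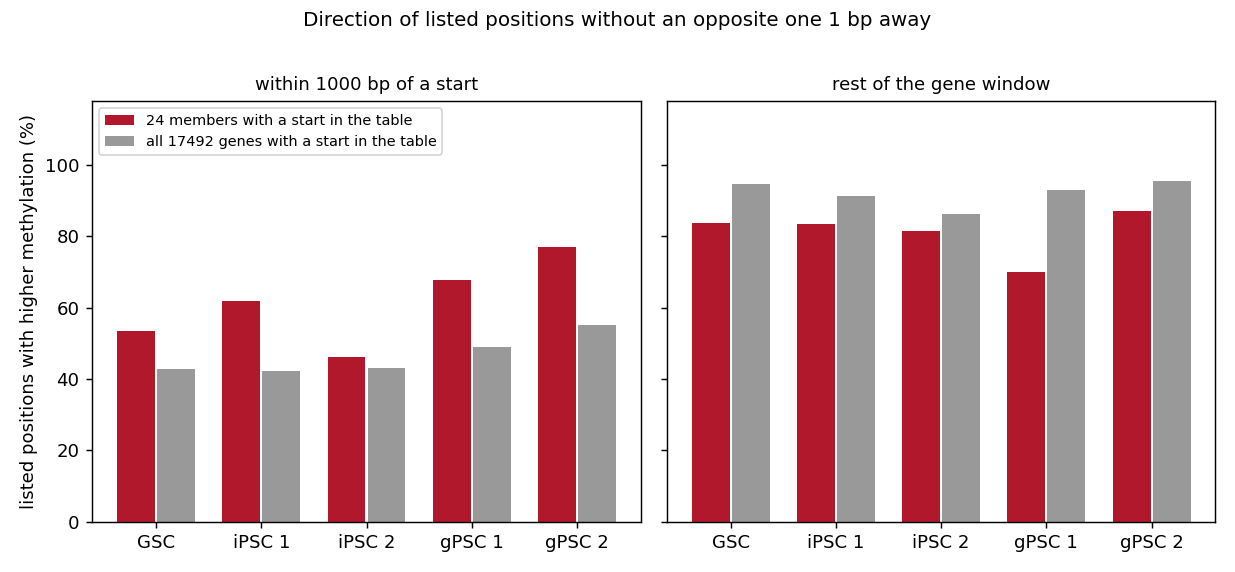
Share of listed positions with higher methylation than the reference, in percent, within 1000 bp of a gene start (left) and in the rest of the gene window (right), for the 24 members with a start in the promoter table (red) and all 17492 such genes (grey), without mirrored pairs. The red bars stand above the grey ones on the left and below them on the right in each of the 5 libraries. On the left the order turns in iPSC 1 and iPSC 2 when Six2 is left out, and in GSC when Six2 and Mesp1 are both left out.

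The GATA factors are zinc finger proteins that open endoderm and blood enhancers. Together their 5 windows held 115 higher and 64 lower positions in GSC, 48 and 19 in iPSC 1, 51 and 25 in iPSC 2, 69 and 54 in gPSC 1, and 53 and 15 in gPSC 2. Gata2, a factor of blood progenitors and trophoblast, had 29 higher positions in GSC, against 8, 9, 10 and 8 in iPSC 1, iPSC 2, gPSC 1 and gPSC 2. Its GSC count lay above all 4 lines. Most of the excess was in the gene body: 10554 to 11001 bp from the start, at chr6:88204445-88204892, GSC had 12 higher positions with a mean of 77.1 points. There iPSC 2 had 2 (mean 25.9) and gPSC 2 had 1, gPSC 1 had 6 higher and 9 lower, and iPSC 1 had none listed. At chr6:88204655 GSC was higher by 77.3 points, while gPSC 1 was lower by 77.3 points on the neighbouring base, chr6:88204654. The same held at 88204661 and 88204660, and at 88204679 and 88204678. In the Gata2 promoter printed above, GSC had 1 higher position (51.0 points), gPSC 2 had 1 (37.5) and iPSC 2 had 2 lower ones with a mean of -58.7.

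Gata3, which acts in trophoblast and mesoderm, had many calls in each library. It held 33 higher positions in GSC, 23 and 19 in iPSC 1 and iPSC 2, and 22 and 23 in gPSC 1 and gPSC 2. A stretch near the far end of the gene, at chr2:9858287-9858606, had higher positions alone in all 5 libraries. There GSC had 15 with a mean of 66.8 points, iPSC 1 had 7 (43.8), iPSC 2 had 2 (39.1), gPSC 1 had 7 (42.2) and gPSC 2 had 6 (31.8). The GSC mean was the highest of the 5.

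Gata4, Gata5 and Gata6 drive endoderm and heart formation. Gata4 had 24 higher positions in GSC, 13 and 15 in iPSC 1 and iPSC 2, and 13 and 17 in gPSC 1 and gPSC 2, and the means in the lines ran from 54.5 to 58.8 points. Its lower positions numbered 13, 3, 2, 7 and 5, so that both gPSC lines had more than both iPSC lines, which occurred in 3.31% of all windows. Without mirrored pairs these counts became 8, 3, 1, 3 and 1, and the groups overlapped. Gata5 had 7 higher and 12 lower positions in GSC, and at most 4 higher and 3 lower in any line. In GSC 12 lower positions, with a mean of -56.1 points, lay 1118 to 1676 bp inside the Gata5 span from its end, and 5 of its higher ones were mirrored there. The 7 unpaired lower ones were within 1000 bp of the Gata5 start in the promoter table, which differs from that end.

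Gata6, the factor that commits cells to primitive endoderm, had 22 higher and 16 lower positions in GSC and 20 and 22 in gPSC 1. The other lines had 3 and 3 (iPSC 1), 5 and 8 (iPSC 2), and 4 and 0 (gPSC 2). Nearly all calls in gPSC 1 were mirrored: 1 higher and 3 lower were left unpaired. In the stretch chr18:11054091-11055228, GSC had 13 higher positions with a mean of 62.1 and 15 lower ones with a mean of -58.6. In the same stretch gPSC 1 had 13 (54.9) and 15 (-59.7), and gPSC 2 had none. The listed calls of the 2 gPSC lines thus differed in this stretch, but whether gPSC 2 was covered there is unknown.

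**Figure D3:**
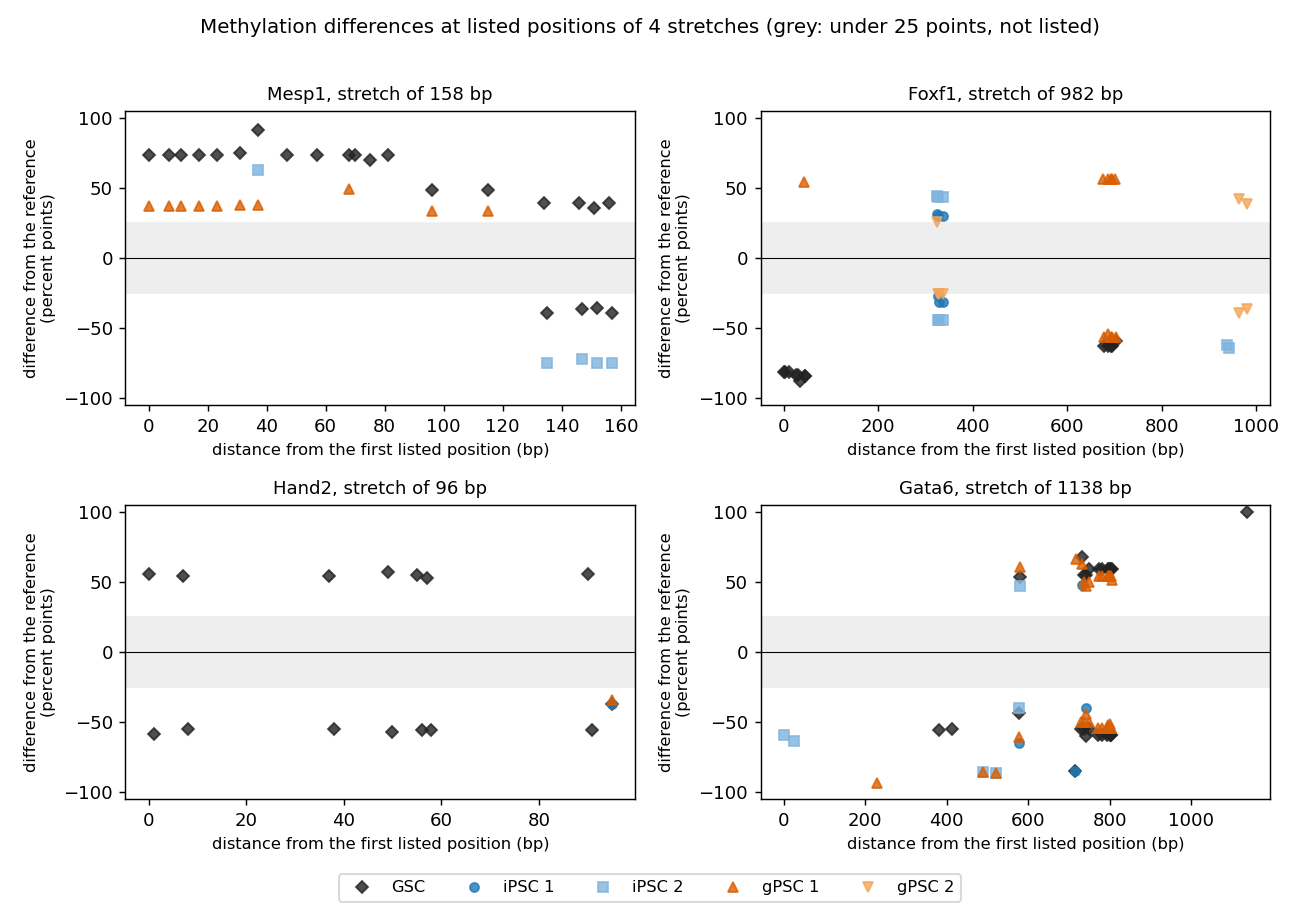
Difference from the reference, in percent points, at each listed position along 1 stretch of the Mesp1, Foxf1, Hand2 and Gata6 windows, against the distance in bp from the first listed position, with 1 marker per library. The grey band holds differences under 25 points, which are not listed. Hand2 in GSC lies in 2 rows near 55 and -55 points, while the first positions of Mesp1 are higher in GSC and gPSC 1 without a mirrored partner.

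The SoxF factors Sox7, Sox17 and Sox18 act in endoderm and in vessel walls. In GSC their 3 windows held 16 higher and 22 lower positions, and this was the one group of genes with more lower than higher calls in GSC. Sox7 had 10 higher and 8 lower positions in GSC, 5 and 1 in iPSC 1, 5 and 2 in iPSC 2, 4 and 0 in gPSC 1, and 8 and 0 in gPSC 2. Its 8 lower GSC positions, with a mean of -66.6 points, lay at one end of the gene, at chr14:63943638-63944341. At chr14:63948106-63948413, in the body of the gene, each library had higher positions alone, from 3 to 6, and the means were 62.8 (GSC), 70.8 (iPSC 1), 72.8 (iPSC 2), 70.3 (gPSC 1) and 54.4 (gPSC 2). Each of these means covers the positions that its own library listed. At the 2 positions listed in all 5 libraries the mean was 90.4 in GSC, and 86.7, 86.6, 88.2 and 79.4 in the lines in the same order. GSC was thus the highest there on average, but at chr14:63948224 gPSC 1 (91.0) lay above GSC (83.3).

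Sox17, a master regulator of definitive endoderm, had 4 higher and 13 lower positions in GSC. It had 5 and 2 in iPSC 1, 6 and 2 in iPSC 2, 2 and 5 in gPSC 1, and 0 and 1 in gPSC 2. The higher counts of both iPSC lines lay above those of both gPSC lines, which occurred in 4.37% of all windows. At chr1:4492136-4492418 GSC had 7 lower positions with a mean of -40.2 points, gPSC 2 had 1 and the other libraries none. Unpaired counts in GSC were 2 higher and 11 lower, which met the call of lower methylation. Sox18 had at most 3 positions of a direction in any library.

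The forkhead factors open closed chromatin at endoderm enhancers. Their 4 windows held 52 higher and 36 lower positions in GSC, 26 and 16 in iPSC 1, 42 and 37 in iPSC 2, 28 and 28 in gPSC 1, and 24 and 10 in gPSC 2. Foxa3 had 23 higher positions in GSC, 13 and 11 in iPSC 1 and iPSC 2, and 9 and 11 in gPSC 1 and gPSC 2, with 3, 2, 7, 5 and 0 lower ones. None of them was mirrored. At chr7:19014324-19014984, inside the gene, GSC had 13 higher positions with a mean of 44.6 points and the lines had 3 to 6 with means of 30.8 to 42.6. Foxa1 had 6 higher and 9 lower in GSC and at most 8 and 12 in a line (gPSC 1), and 16 of the latter 20 were mirrored. Foxa2 had 15 higher and 10 lower in GSC and 15 and 9 in iPSC 2, but 3 or 4 higher in the other lines.

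Foxf1, which acts in the mesoderm around the gut and lungs, had 8 higher and 14 lower positions in GSC, all unpaired. The lines had 7 and 4 (iPSC 1), 8 and 14 (iPSC 2), 7 and 7 (gPSC 1), and 4 and 5 (gPSC 2), most of them mirrored. Over one end of the gene, at chr8:121083867-121084848, GSC had 13 lower positions with a mean of -75.0 points and no higher one. Past the other end, at chr8:121088917-121089662, GSC had 6 higher with a mean of 78.0 and no lower one. So the GSC calls went in opposite directions at the 2 ends of 1 short gene. The 13 lower ones include positions that gPSC 1 listed in mirrored pairs. All 5 mirrored lower positions of gPSC 1 in this window were lower in GSC too, as at chr8:121084545. In the second stretch iPSC 2 had 4 higher (38.1) and 9 lower (-47.1), and iPSC 1 had 3 higher (47.8) and 1 lower.

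The regulators of the primitive streak and posterior body held 70 higher and 26 lower positions in GSC over 7 windows. The lines held 13 and 13 (iPSC 1), 24 and 23 (iPSC 2), 30 and 9 (gPSC 1) and 20 and 8 (gPSC 2). Eomes, which opens the endoderm program in the streak, had 6 higher and 8 lower positions in GSC. The 8 lower ones, with a mean of -46.4 points, lay 719 to 1533 bp from its start, and 5 of them, with a mean of -44.9, are the capitals in the Gm33408 promoter printed above. No other library listed any of these 5. In the whole stretch the lines had 2, 1, 3 and 2 lower positions (iPSC 1, iPSC 2, gPSC 1, gPSC 2). Mixl1, a streak homeobox gene, had at most 1 higher and 2 lower positions in any library.

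The goosecoid gene Gsc, a homeobox gene of the organizer, had 19 higher and 6 lower positions in the GSC cells. It had 1 and 1 in iPSC 1, 3 and 1 in iPSC 2, 0 and 1 in gPSC 1, and 7 and 4 in gPSC 2. The GSC count was far above the lines. Of its higher positions, 17 lay 3016 to 2730 bp upstream of the start, at chr12:104475966-104476252, with a mean of 51.1 points. In that stretch iPSC 2 had 1 higher, gPSC 1 none, and gPSC 2 4 higher and 3 lower. The 1 listed in iPSC 1 was lower (-33.9), at a position where GSC was higher (25.7). The 6 lower positions, with a mean of -60.4 points, lay within the stretch 375 to 516 bp from the start, chr12:104472720-104472861, where iPSC 2 and gPSC 1 had 1 lower position each. None of the GSC calls in either stretch was mirrored.

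Mesp1, which marks the first heart and head mesoderm, held all but 1 of its calls in 158 bp, at chr7:79793020-79793177, 413 to 570 bp from its start. GSC had 19 higher positions there with a mean of 64.5 points and 4 lower ones with a mean of -37.7. In gPSC 1 the stretch had 10 higher positions with a mean of 37.6 and no lower one. In iPSC 2 it had 1 higher and 4 lower (-74.2), while iPSC 1 and gPSC 2 had no listed position in the window. The listed calls of the 2 lines of each kind thus differed, but whether iPSC 1 and gPSC 2 were covered there is unknown. Positions of a stretch are not independent: 10 of the GSC values were the same, at 73.8 points. The neighbour Mesp2 had 1 or 2 higher positions in GSC, iPSC 2, gPSC 1 and gPSC 2, none in iPSC 1, and no lower one.

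Cdx1 and Cdx2 pattern the posterior body and the gut. Cdx1 had 15 higher positions in GSC, 5 and 11 in iPSC 1 and iPSC 2, and 9 and 7 in gPSC 1 and gPSC 2, and 1, 2, 9, 2 and 0 lower ones. At chr18:61026015-61026133 all 5 libraries had higher positions alone, 3 or 4 in each, with means of 72.6 (GSC), 56.4, 53.9, 59.6 and 67.7 (iPSC 1, iPSC 2, gPSC 1, gPSC 2). Of the 9 lower positions in iPSC 2, 8 lay together at chr18:61035656-61036415 with a mean of -70.8. Cdx2 had 8 higher and 6 lower in GSC, and 1, 1, 2 and 3 higher in the lines. Both gPSC counts lay above both iPSC counts, as in 12.3% of all windows, by 1 or 2 positions. In GSC, 5 lower positions (mean -72.5) lay at chr5:147306552-147306656, the nearest 593 bp from the Cdx2 start, and 6 higher ones (38.6) lay 5097 to 5257 bp from it.

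The heart factors were the one group in which another library held more higher positions than GSC. Their 6 windows held 76 higher positions in GSC, 50 and 87 in iPSC 1 and iPSC 2, and 57 and 59 in gPSC 1 and gPSC 2. Hand1, a basic helix-loop-helix factor of heart and trophoblast, had 16 higher and 0 lower positions in GSC. It had 3 and 1 in iPSC 1, 6 and 4 in iPSC 2, 1 and 2 in gPSC 1, and 4 and 1 in gPSC 2. The largest GSC run, 9 higher positions with a mean of 51.8 points, lay at chr11:57833722-57834030, where no line had more than 2. Nkx2-5, a homeobox factor of the early heart, had 12 higher positions in iPSC 2 and 1 to 5 elsewhere. Of these 12, 7 lay at chr17:26838968-26839071 with a mean of 67.4, where no other library listed a position. Tbx20 had at most 4 higher and 3 lower positions in a library.

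Hand2, the paralog of Hand1, had 11 higher and 14 lower positions in GSC, of which 3 and 6 were unpaired. At chr8:57322067-57322162, 1084 to 1179 bp from the start, GSC had 7 higher positions with a mean of 55.0 points and 8 lower ones with a mean of -53.6. In that stretch 14 of the 15 positions stood in mirrored pairs. The lines had 1 lower position there in iPSC 1 and in gPSC 1 and none in the others. At chr8:57326150-57326162, past the gene, each library had 1 or 2 higher positions and no lower one.

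Tbx2 and Tbx5 repress and drive the chamber program of the heart. Tbx2 had 29 higher positions in GSC, 12 and 16 in iPSC 1 and iPSC 2, and 19 and 10 in gPSC 1 and gPSC 2. Its lower positions numbered 7, 15, 11, 26 and 6, so it was called higher in GSC alone of the 5. Most calls of the lines lay at chr11:85836806-85838081, with 11 higher and 13 lower in iPSC 1, 9 and 8 in iPSC 2, 12 and 13 in gPSC 1, but 3 and 0 in gPSC 2.

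Tbx5, needed for the heart and the forelimb, ran the other way. It had 14 higher positions in GSC, against 27 and 41 in iPSC 1 and iPSC 2, and 27 and 30 in gPSC 1 and gPSC 2. Tbx5 and Twist2 were the 2 members whose higher count in GSC lay below all 4 lines, which occurred in 2.90% of all windows. In the stretch chr5:119835251-119835562 the lines had 5, 10, 9 and 4 higher positions (iPSC 1, iPSC 2, gPSC 1, gPSC 2) with means of 38.4, 41.5, 43.9 and 33.4 points, and GSC had 2 with a mean of 60.1. In the Gm5563 promoter printed above, iPSC 1 had 6 higher (44.3) and 5 lower (-46.4), iPSC 2 had 3 and 2, gPSC 1 had 5 and 3, gPSC 2 had 5 and 4, and GSC had 2 lower alone. Here the 4 lines list cytosines of the same CpGs in both directions.

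The muscle and somite genes had few calls. Myod1, the switch gene of skeletal muscle, had 1 listed position, higher in gPSC 1. Myf5 and Myf6, muscle factors that lie next to each other and whose windows overlap, shared 1 listed position, higher in GSC by 83.8 points. Meox1, a somite homeobox gene, had 15 higher positions in GSC, 12 and 8 in iPSC 1 and iPSC 2, and 11 and 11 in gPSC 1 and gPSC 2, with 4, 2, 2, 3 and 2 lower ones. Its counts were close in all 5 libraries. At chr11:101890893-101891515 they were 6, 3, 4, 5 and 4 higher positions with means of 56.1, 38.2, 43.8, 45.5 and 42.8, in the order GSC, iPSC 1, iPSC 2, gPSC 1, gPSC 2, and no lower one.

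The 7 remaining members of this kind act in limb, kidney and mesenchyme. Six2, which keeps nephron progenitors, had 22 higher positions in GSC, 12 and 28 in iPSC 1 and iPSC 2, and 6 and 19 in gPSC 1 and gPSC 2, with 6, 2, 6, 4 and 5 lower ones. The 2 lines of each kind were far apart in their higher counts. At chr17:85687084-85687763, 491 to 1170 bp from its start, GSC had 11 higher positions (mean 59.0), iPSC 1 had 8 (53.2), iPSC 2 had 8 (56.1), gPSC 2 had 8 and gPSC 1 had 1 (91.3). The same stretch held 3 lower positions in GSC (mean -67.6) and 4 in iPSC 2 (-57.2), and none in the other 3 libraries. Tbx4, the hindlimb T-box gene, had 18 higher positions in GSC, 7, 6, 7 and 11 in the lines, and 1, 1, 1, 5 and 1 lower ones. Near the end of the gene, at chr11:85915699-85915718, 4 libraries had 3 higher positions and iPSC 2 had 1, with means from 61.1 to 84.2 points.

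Tbx15, a limb and skeletal T-box gene, had 21 higher positions in GSC, 7 and 13 in iPSC 1 and iPSC 2, and 6 and 7 in gPSC 1 and gPSC 2. Of the GSC calls, 10 higher (41.1) and 7 lower (-42.6) lay at chr3:99253642-99253774, and 3 higher and 0 lower of them were unpaired. Tbx18, which acts in the ureter and heart pacemaker, had 3, 1, 3, 2 and 1 higher and 3, 3, 1, 3 and 5 lower positions. Upstream of it, 1809 to 1718 bp before the start, iPSC 1, gPSC 1 and gPSC 2 each had 2 lower positions, with means of -31.2, -29.1 and -28.9. Prrx1, a mesenchyme homeobox gene, had 3 higher positions in GSC, 3 and 0 in iPSC 1 and iPSC 2, and 2 and 1 in gPSC 1 and gPSC 2, and no lower one.

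Twist1 and Twist2 are basic helix-loop-helix factors of mesenchyme. Twist1 had listed positions in iPSC 2 alone, 1 higher and 5 lower. The lower ones, with a mean of -68.2 points, lay 813 to 931 bp from its start, at chr12:33958484-33958602. Twist2 had 8 higher positions in GSC, 15 and 9 in iPSC 1 and iPSC 2, and 12 and 14 in gPSC 1 and gPSC 2. Inside the gene, at chr1:91804728-91804812, the lines had 4, 3, 1 and 4 higher positions with means of 80.6, 87.8, 79.0 and 83.8, and GSC listed none. In the Twist2 promoter printed above GSC had 1 lower position (-75.6), iPSC 1 had 3 higher and 2 lower, iPSC 2 had 4 lower (-63.7), gPSC 1 had 6 higher (68.5) and 4 lower (-61.3), and gPSC 2 had 2 lower (-84.2). All 5 libraries thus listed lower cytosines in this promoter, and 2 listed higher ones beside them.

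Runx1 and Tal1 are required for blood. Runx1 had 39 higher positions in GSC, the most of any member there, 19 and 24 in iPSC 1 and iPSC 2, and 25 and 23 in gPSC 1 and gPSC 2. Its lower positions numbered 5, 2, 6, 5 and 1. With the steps of at most 100 bp joined, the higher positions formed 22 runs in GSC and 11, 17, 15 and 15 in the lines, so the counts did not come from 1 stretch of its long gene, of 224609 bp. At chr16:92614698-92614998, each library had 4 or 5 higher positions, with means of 50.8 (GSC), 37.6, 42.4, 46.8 and 35.1 in the order above. Tal1 had 14 higher and 10 lower in GSC and at most 3 and 1 in the lines. At its start, chr4:115056425-115056756, GSC had 10 higher and 8 lower, of which 2 and 0 were unpaired. Hnf4a, a nuclear receptor of liver and gut, had 10 higher and 1 lower in GSC and 3, 3, 2 and 2 higher with no lower in the lines, so that both iPSC lines lay above both gPSC lines by 1 position.

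Higher counts in GSC exceeded those of all 4 lines in 22 of 39 members, where this held in 47.0% of all windows. The 10 largest GSC counts were those of Runx1, Gata3, Gata2, Tbx2, Gata4, Foxa3, Six2, Gata6, Tbx15 and, tied, Mesp1 and Gsc. For sizes, 38 positions in 19 member windows were listed in all 5 libraries, 33 higher and 5 lower, each with 1 direction throughout. Over the 33 higher ones, the mean difference was 70.8 points in GSC, 54.9 and 56.6 in iPSC 1 and iPSC 2, and 62.1 and 58.9 in gPSC 1 and gPSC 2. GSC was above every line at 23 of the 38 (60.5%) and below every line at 3, and over all 32943 such positions of the series it was above at 54.8%. The median of GSC minus the mean of the lines was 11.8 points in the members and 8.83 over all. All these differences share the reference, GSC is 1 library, and the comparison was not tested.

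Among members, Runx1 had 5 such positions, with means of 67.6 (GSC), 53.0 (iPSC 1), 52.3 (iPSC 2), 58.2 (gPSC 1) and 54.1 (gPSC 2). Cdx1 had 3, with 67.5, 49.2, 53.9, 54.4 and 61.6. Foxa3 had 1, with 83.7, 41.7, 26.5, 46.2 and 67.0. In these GSC stood above each line. Twist2 had 1, with 49.6 in GSC and 56.1, 73.4, 72.1 and 67.5 in the lines, and there GSC stood below each of them.

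**Figure D4:**
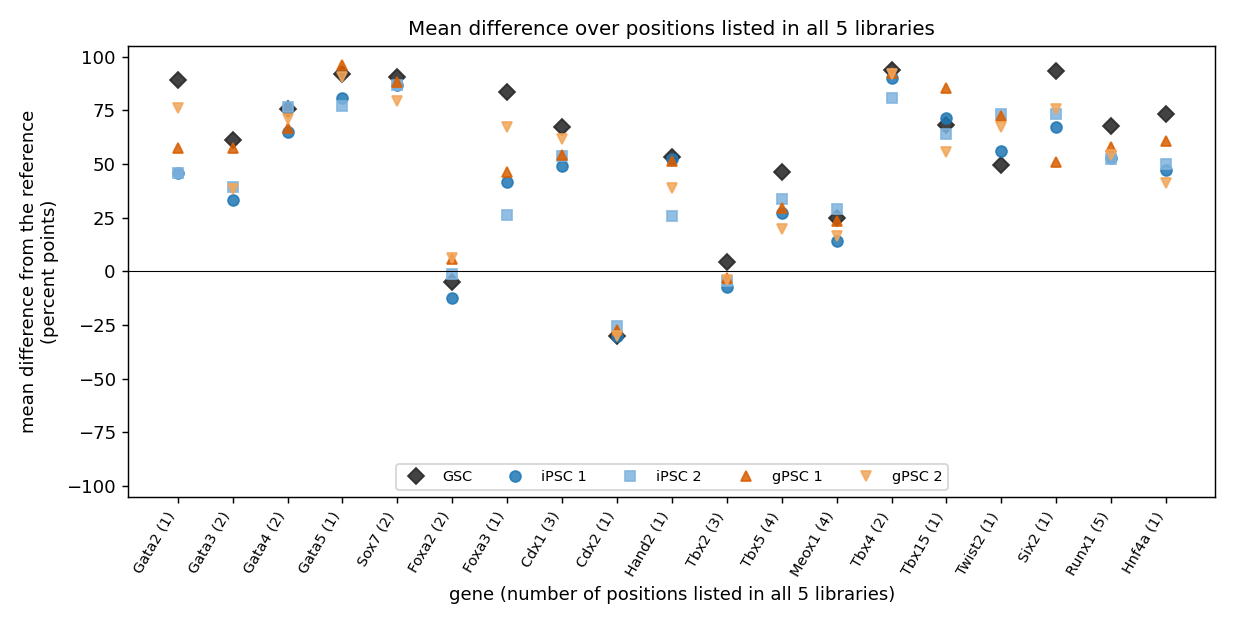
Mean difference from the reference, in percent points, over the positions listed in all 5 libraries, for the 19 members that have any, with the number of positions in brackets and 1 marker per library. The GSC marker of Runx1 (67.6) lies above those of the 4 lines (52.3 to 58.2), and that of Twist2 (49.6) lies below them (56.1 to 73.4). In Foxa2, Tbx2, Tbx5 and Meox1 the mean pools higher and lower positions, which offset each other, so their markers understate the size of the single differences.

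The series title asks whether reprogramming by factors leaves an epigenetic memory, so the iPSC and gPSC lines were compared with each other over the member windows. Higher positions numbered 272.5 ± 61.5 (SD, n = 2) in iPSC and 261.5 ± 7.78 (SD, n = 2) in gPSC, a difference of 11, and the two-sided exact permutation test gave p = 1. Lower positions numbered 132 ± 35.4 and 122.5 ± 67.2, a difference of 9.5 (exact permutation p = 1). The first difference was smaller than the SD of the iPSC lines and the second smaller than both SDs. Their sign rests on single lines: without iPSC 2 the first is -32.5, and without gPSC 2 the second is -38. At 52 positions listed in all 4 lines, 44 higher and 8 lower in 20 members, the mean difference was 38.4 ± 0.50 in iPSC and 40.8 ± 0.81 in gPSC. The difference of -2.42 points was larger than the SDs, and the exact permutation p of 0.333 is the smallest that 2 lines against 2 can give. Higher and lower positions offset each other in this mean. Over the 44 higher ones it was 55.3 and 55.1 in iPSC 1 and iPSC 2, and 59.2 and 59.0 in gPSC 1 and gPSC 2. Over the 8 lower ones it was -56.7, -51.3, -56.9 and -62.8 in that order.

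Gene by gene, few members separated the kinds. Higher counts of both iPSC lines lay above both gPSC lines in Sox17 and Hnf4a (4.37% of all windows), and the reverse held in Cdx2 (12.3%). Lower counts of both iPSC lines lay above both gPSC lines in Mixl1, Sox7 and Tbx5 (7.29%), and below in Gata4 (3.31%). As shares of 39 members these counts lie near the background, and below it for Cdx2. The mean difference at shared positions was tested with limma over 2884 windows that had at least 3, and no window passed at a Benjamini-Hochberg adjusted p of 0.05 (0% of windows, and 345 had an unadjusted p under 0.05). The smallest adjusted p was 0.397. Twist2, Tbx5, Tbx2, Meox1, Runx1 and Cdx1 were the 6 members in that fit. The largest estimate among them was that of Cdx1, at 49.2 and 53.9 points in iPSC and 54.4 and 61.6 in gPSC, a difference of -6.47 with a standard error of 3.80 and a limma adjusted p of 0.497. For Runx1 it was -3.52 with a standard error of 2.82, and the other 4 lay between -2.39 and 3.30. The median over the 6 members was -1.71 points, against -3.70 over all windows tested.

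Signals and partners of these factors were read from a list of 47 genes: ligands and antagonists of the Nodal, BMP, Wnt and FGF pathways, their receptors and transducers, and other lineage factors and markers. Of these, 46 had a listed position. The call of higher methylation was met by 16 of the 47 in GSC (42.9% of all windows), 13 for iPSC 1 (29.0%) and 14 for iPSC 2 (29.5%). For gPSC 1 the count was 12 (32.8%) and for gPSC 2 it was 17 (40.1%). It was met in both lines by 7 for iPSC (18.2%) and 8 for gPSC (24.8%). The list's share thus lay near that of all windows in iPSC 1 and iPSC 2 and below it in GSC, gPSC 1 and gPSC 2. Lower methylation was called for 1 gene of the list in GSC (2.41%), 1 with iPSC 1 (1.92%) and 3 with iPSC 2 (2.11%). For gPSC 1 no gene was called (1.44%) and for gPSC 2 there was 1 (1.27%). The 5 genes with the most calls were Fgfr1, an FGF receptor (168 over all libraries), Foxc1 (160), the Wnt transducer Lef1 (141), the brachyury gene T (134) and Bmp2 (133). Lef1 had 39 higher and 12 lower positions in GSC, and 22 and 2, 18 and 6, 20 and 0, and 21 and 1 in iPSC 1, iPSC 2, gPSC 1 and gPSC 2. T had 25 higher and 7 lower in GSC, and 17 and 9, 22 and 7, 17 and 9, and 14 and 7 in the same lines. Fgfr1 had 37 higher and 22 lower in GSC, and 14 and 15, 16 and 20, 10 and 12, and 15 and 7 in the lines, so that its lower positions outnumbered the higher ones in all but gPSC 2 of these. The BMP transducer Smad5 was the 1 list gene called lower in both iPSC lines (0.216% of all windows), and it is named after its values were seen.

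For the labels, the window of the pluripotency gene Pou5f1, whose regulatory sequence drives the OG2 reporter, had 92 higher and 1 lower positions in GSC against 14 and 11 in iPSC 1 and 30 and 7 in iPSC 2. In gPSC 1 it had 20 higher and 5 lower, and in gPSC 2 26 and 7. Nanog had no listed position in any library. Zfp42 had 19 higher positions in GSC and 1, 8, 5 and 1 in the lines, and Esrrb had 54 and 14, 16, 15 and 17, with at most 3 lower ones per library for Zfp42 and 10 for Esrrb. The 5 germ cell genes did not share a pattern. Sycp3 had 1 higher position in GSC and 4, 5, 15 and 8 in the lines, and Dazl had 7 and 8, 13, 15 and 8, with 15 lower ones in GSC and 1, 4, 2 and 1 in the lines. Zbtb16 had 46 higher positions in GSC and 35, 32, 38 and 34 in the lines. Gfra1 had 25 and 30, 27, 24 and 26, and Ddx4 had 4 and 3, 2, 3 and 5, so neither set GSC apart from the lines. Other cell types in the cultures cannot be seen in these tables, and their part in the results was not tested.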

How the data were processed

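Per the submitters' processing notes, methylKit, Bismark, GATK and Bowtie2 were used with the builds GRCm38 and mm10, without versions or roles. Their settings, and any coverage minimum, are not given in the sources used. The authors deposited 10 tables, 1 for each direction in each of 5 libraries, with a p-value, a q-value and a methylation difference in percent points per position. Tested on the tables, they hold called positions alone. The authors' feature column often names transcripts that overlap a member on the other strand, so it was not used.

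Gene spans came from a RefSeq table of GRCm38.p6, matched by symbol, and starts and promoter sequences from the RefSeq promoter table of that build. Distances in bp given for single genes are from the end of the span at which the gene starts. Positions in a window were counted per library with pandas 2.3.3. Kinds of line were compared with a two-sided exact permutation test (scipy 1.17.1) and, over all windows with at least 3 positions listed in all 4 lines, with limma 3.58.1 and Benjamini-Hochberg adjustment, tested on simulated data. Named members are the 10 with the most higher positions in GSC, those called in both lines of a kind or called lower in any library, and those whose counts separate the kinds, and the other members are described in less detail. The split at 1000 bp from a start was chosen after seeing the data. The members, lists and rules were chosen with earlier results of these data known. Positions of a stretch can share reads, so counts are not independent. The p-values measure the spread between lines that the series' design calls independent.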

Additional observations from a re-analysis of the deposited data

Results flagged for a closer look

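Sox17 differed between the 2 kinds of line in which direction held more of its listed positions. It had more higher than lower positions in both iPSC lines (5 and 2, 6 and 2) and more lower than higher ones in both gPSC lines (2 and 5, 0 and 1). The mean of higher minus lower positions was 5.5 larger in iPSC than in gPSC. This difference was not tested, and the gPSC 2 value rests on 1 position. The share of all windows with such a reversal was not counted, so it cannot be called particular to Sox17. Higher counts of both iPSC lines above both gPSC lines occurred in 4.37% of all windows. The 4 positions listed in both an iPSC and a gPSC line had the same sign in both, so the contrast lies in which other positions were listed, and both higher positions in gPSC 1 belong to mirrored pairs.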

How the results depend on the processing

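The tables give no depth, each kind has 2 lines, and GSC has 1, so which unlisted positions were measured is unknown. Counts of called members moved with the rule. Where no share of all windows under the same rule stands beside a count, its move cannot be set against other genes. Members called lower in GSC (0) became 2 with a reach of 2000 bp. They became 1 without positions 1 bp from an opposite one (3.42% of all windows) and 1 without those within 50 bp. Members called higher in GSC (10) became 16 without opposites within 50 bp and 2 when all positions had to share the direction. For both iPSC lines the count of 6 became 3 with runs within 100 bp counted once, an alternative chosen after seeing the data, and 1 when all had to share the direction. Leaving out 1 iPSC line gave 10 (29.5% of all windows, iPSC 2 alone) to 11 (29.0%, iPSC 1 alone). A count over both lines can only rise or stay when a line is left out. For both gPSC lines the count of 4 became 7 without 1 bp opposites, 9 without opposites within 50 bp, 8 with at least 1 position, 1 with runs counted once and 1 when all had to share the direction. Leaving out 1 gPSC line gave 5 (32.8% of all windows, gPSC 1 alone) to 12 (40.1%, gPSC 2 alone). For lower calls, leaving out 1 line gave 0 (1.92%) to 2 (2.11%) for iPSC and 0 (1.44%) to 1 (1.27%) for gPSC. The cause of these moves beyond the changed rule was not tested.

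The iPSC minus gPSC difference in higher positions turned to -0.5 at differences of at least 50 points. It ranged from -32.5 (without iPSC 2) to 54.5 (without iPSC 1) when a line was left out. For lower positions the range was -38 (without gPSC 2) to 57 (without gPSC 1), with -15.5 without iPSC 2. The mean difference at positions listed in all 4 lines kept its sign in each alternative. It ran from -1.43 at differences of at least 50 points to -4.62 without opposites within 50 bp. With the line number as a replicate block the values were 11 for higher and 9.5 for lower positions (exact permutation p = 1 for each). For the mean difference the value was -2.42 (exact permutation p = 0.5, the smallest that the blocked test can give). The limma fit called 0 windows with the block and in its 8 other alternatives. The numbers name independent lines and are not taken to pair them. The deviations of the 2 lines numbered 1 had a correlation of 0.0934, which cannot by itself show whether lines of the same number share anything.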
